A study of Mus musculus with 4 samples.

Results

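The comparison of siMUNC with control siRNA in proliferating C2C12 myoblasts was made over 7564 expressed genes of the 14860 genes that could be named on the arrays. C2C12 is an established mouse line of muscle precursor cells, which multiply while serum is plentiful and turn into multinucleated myotubes on its withdrawal. The siRNA was directed at MUNC, a noncoding transcript made from a region upstream of the MyoD gene, and the comparison addresses how its depletion alters myoblasts that have not yet been driven to differentiate. Each gene was represented by its brightest single-gene transcript cluster, and a gene counted as expressed when the higher of its siMUNC and control values was at least 8.50 on the log2 signal scale, the middle value of the gene means in the series. The siMUNC proliferating cells and the control proliferating cells were both C2C12 cells kept in high-glucose medium with 10% fetal bovine serum, with siRNA against MUNC in the first and control siRNA in the second. The other 2 arrays, siMUNC differentiating cells and control differentiating cells, came from the same line collected 3 days after a change at 80% confluence to medium with 2% horse serum. All 4 groups had therefore received an siRNA, and each was hybridised to 1 array. With 1 array per group no difference could be set against a spread between replicates, no p-value was computed, and every value below describes these arrays.

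Myoblasts are muscle precursors in which MyoD and Myf5, DNA-binding factors of the basic helix-loop-helix family, hold the cells to the muscle lineage while they divide. When growth factors are withdrawn the cells leave the cell cycle, myogenin and MEF2 factors come on, and genes of fusion and of the contractile apparatus follow. Long noncoding RNAs transcribed near the Myod1 enhancers are known as regulators of this step.

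The genes that mark the line were present on both proliferating arrays. Myod1 (transcript cluster 6960454) read 10.96 in siMUNC cells and 11.46 in control cells, and Myf5, its relative, read 10.86 in siMUNC cells and 10.43 in control cells. The muscle intermediate filament gene Des read 13.19 in siMUNC cells and 13.17 in control cells, and the muscle cadherin gene Cdh15 read 11.71 in siMUNC cells and 11.55 in control cells. The labelled cell type thus carried its defining markers in both groups. Msc, a repressor of myogenic factors, was dim in both (8.32 in siMUNC cells and 7.72 in control cells). The target itself, listed in the gene table as Gm45923, was paired with 0 named clusters, so the depth of the knockdown is not known from these values and the groups are used as labelled.

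The proliferating arrays were close to each other. Their correlation across the 7564 expressed genes, which are not independent replicates, was 0.975, and 76.7% of these genes differed by less than 1.2-fold. The middle 95% of differences, siMUNC minus control, lay between -0.58 and 0.43 with a median of -0.03, and their SD over genes was 0.252, against 0.438 between siMUNC and control in differentiating cells. Genes past 2-fold numbered 30 (0.397%), with 7 higher in siMUNC cells (0.0925%) and 23 lower (0.304%). Centring the arrays, like quantile normalization, made this 9 higher and 18 lower. A stricter level filter, at the 75th percentile, left 5 higher and 6 lower. The lower side was also the longer one at 1.5-fold, a threshold added after the data were seen, with 70 genes higher (0.925%) and 189 lower (2.5%). Differences depended on the level: the 2300 genes with a mean between 6 and 7 had a median of 0.17, whereas the 2325 genes with a mean between 10 and 11 had a median of -0.03. Over all 14860 genes, dim ones included, 56.8% were above 0 and 43.1% below (67.2% and 32.8% after centring), while among expressed genes 44% were above and 56% below. These shares are the background for every count of list members above or below 0 in proliferating cells. A list of mostly expressed members has the expressed genes as its nearer background. Without the filter 87 of the 14860 genes were past 2-fold (0.585%), 35 of them higher (0.236%) and 52 lower (0.35%).

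**Figure D1:**
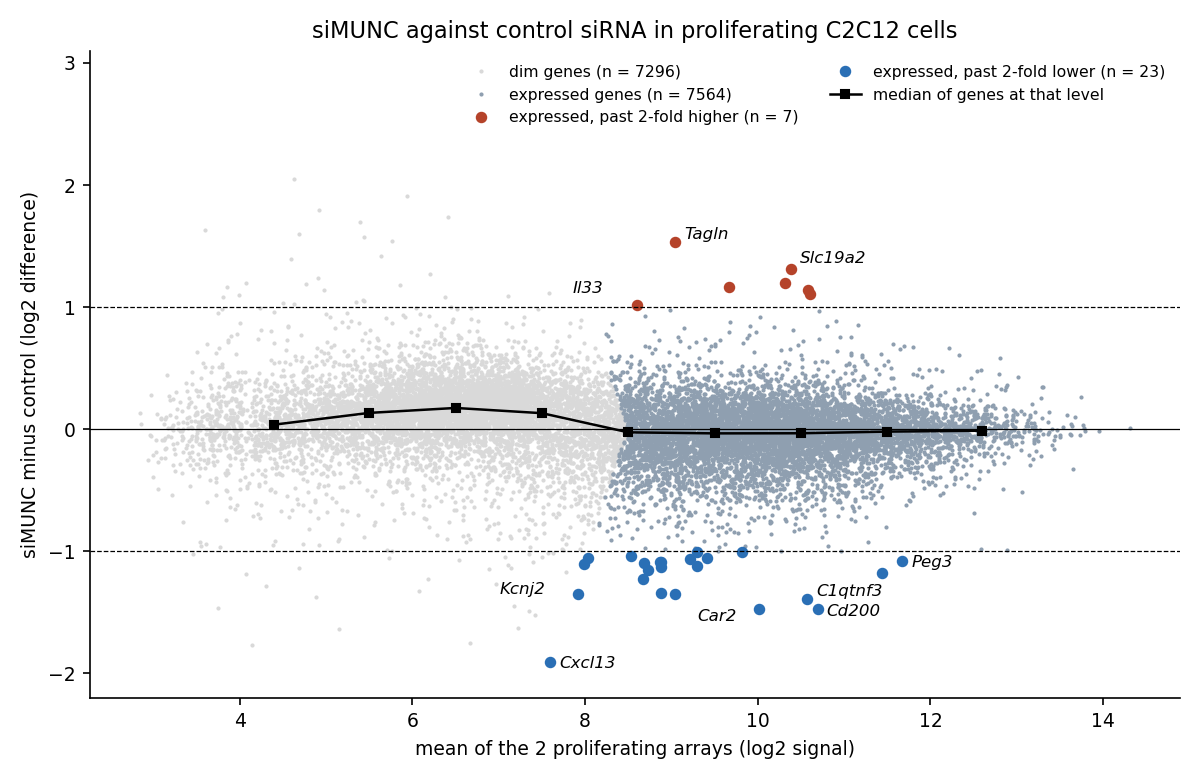
Log2 difference of siMUNC minus control in proliferating cells for every named gene against its mean log2 signal on the same 2 arrays, with the median of genes at each level as a black line and dashed lines at 2-fold. The line lies above 0 for dim genes (0.17 at a signal between 6 and 7) and near 0 for expressed genes, and 23 coloured points lie below the lower dashed line against 7 above the upper one.

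Cxcl13, Cd200, Car2 and C1qtnf3 were the lowest genes in siMUNC proliferating cells. Cxcl13, a chemokine that attracts B cells, read 6.64 in siMUNC proliferating cells and 8.55 in control proliferating cells, and 9.28 in siMUNC differentiating cells and 10.78 in control differentiating cells. It was 3.76-fold lower with siMUNC before the change of medium and 2.81-fold lower after it. Its value of 6.64 lies below the level counted as expressed, so the size of the first fold rests on a dim reading. Cd200, a membrane glycoprotein whose receptor restrains myeloid cells, read 9.96 in siMUNC proliferating cells and 11.43 in control proliferating cells, and 11.26 in siMUNC differentiating cells and 12.08 in control differentiating cells. C1qtnf3, a secreted relative of complement C1q, read 9.87 in siMUNC proliferating cells and 11.27 in control proliferating cells, and 11.68 in siMUNC differentiating cells and 13.51 in control differentiating cells. For C1qtnf3 the lower value with siMUNC was seen in both states, by 2.63-fold in proliferating and 3.56-fold in differentiating cells.

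Car2, a cytosolic carbonic anhydrase that interconverts carbon dioxide and bicarbonate, read 9.28 in siMUNC proliferating cells and 10.75 in control proliferating cells, and 9.76 in siMUNC differentiating cells and 10.30 in control differentiating cells. Both siMUNC arrays were below both control arrays for this gene. Kcnj2, an inward rectifier potassium channel whose activity precedes fusion in human myoblasts, read 7.24 in siMUNC proliferating cells and 8.59 in control proliferating cells, and 8.38 in siMUNC differentiating cells and 9.42 in control differentiating cells. The bradykinin receptor gene Bdkrb1 (difference -1.22), the secreted olfactomedin-like Olfml3 (-1.18), the complement C1 inhibitor Serping1 (-1.09) and the cell-surface protein gene Islr (-1.08) were also past 2-fold lower. Peg3, an imprinted zinc-finger gene of high level in this line, read 11.14 in siMUNC proliferating cells and 12.21 in control proliferating cells, and 11.62 in siMUNC differentiating cells and 12.45 in control differentiating cells.

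Other lower genes are known from muscle. Mymk, which encodes the fusion protein myomaker, read 8.80 in siMUNC proliferating cells and 9.80 in control proliferating cells, and 12.87 in siMUNC differentiating cells and 13.65 in control differentiating cells. It stands at the edge of the call, with a difference of -1.002. Ano5, a membrane protein linked to repair of muscle fibres, differed by -1.05 in proliferating and -1.95 in differentiating cells, and Apobec2, a muscle-enriched member of the cytidine deaminase family, by -1.03 and -1.59. Both genes were lower with siMUNC in both states. The remaining lower genes were Oscp1 (-1.35), D030056L22Rik (-1.34), Rpl22 (-1.16), Aggf1 (-1.13), Dync1i1 (-1.12), Hirip3 (-1.10), Cep41 (-1.10), Glipr1 (-1.06), Mrpl48 (-1.05) and Anp32e (-1.01). Rpl22 is a ribosomal protein gene with near-identical copies elsewhere in the genome, so its value is uncertain.

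The 7 genes higher in siMUNC cells included an actin-binding protein, a vitamin transporter, a p53-induced gene and a cytokine. Tagln, which encodes the actin-binding protein transgelin, read 9.81 in siMUNC proliferating cells and 8.28 in control proliferating cells, and 8.73 in siMUNC differentiating cells and 7.97 in control differentiating cells, a difference of 2.90-fold before and 1.69-fold after the change of medium. Slc19a2, a thiamine transporter, read 11.04 in siMUNC proliferating cells and 9.73 in control proliferating cells, and 10.74 in siMUNC differentiating cells and 8.56 in control differentiating cells. It came next after Tagln in proliferating cells at 2.48-fold, and its difference in differentiating cells was 4.54-fold. Trp53inp1, a p53-induced gene, read 10.91 in siMUNC proliferating cells and 9.72 in control proliferating cells, and 11.51 in siMUNC differentiating cells and 10.42 in control differentiating cells. Il33, an alarmin cytokine, read 9.11 in siMUNC proliferating cells and 8.10 in control proliferating cells, and 10.82 in siMUNC differentiating cells and 9.18 in control differentiating cells. Txnip, which binds thioredoxin and limits glucose uptake, read 11.15 in siMUNC proliferating cells and 10.01 in control proliferating cells, but 11.82 in siMUNC differentiating cells and 11.60 in control differentiating cells. For Txnip and for Tmem150a, a membrane protein gene (1.17 in proliferating and 0.13 in differentiating cells), the difference in differentiating cells was small. Rbm18, an RNA-binding protein gene, differed by 1.10 in proliferating and 0.64 in differentiating cells.

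**Figure D2:**
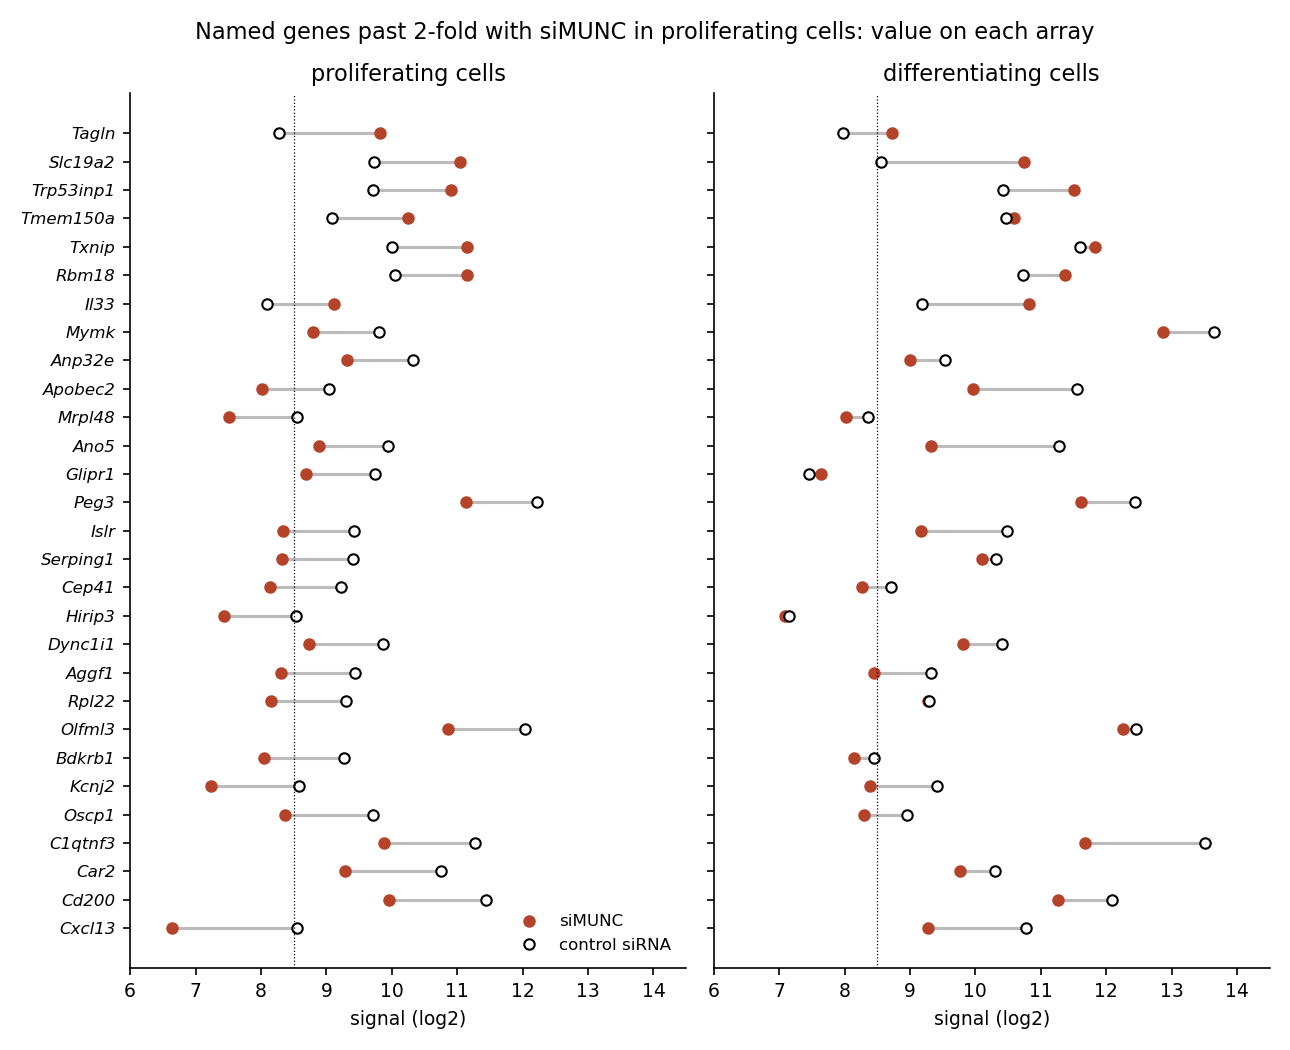
Log2 signal on each of the 4 arrays for the 7 higher genes and 22 of the 23 lower genes (the model-named D030056L22Rik is not drawn), in proliferating cells on the left and differentiating cells on the right, with siMUNC as filled and control as open circles and a dotted line at 8.50. The filled circle lies on the same side of the open one in both panels for every gene drawn other than Glipr1.

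The thresholds cut through closely spaced values. Just inside 2-fold stood Mymk (-1.002), Anp32e (-1.008) and Il33 (1.015), and just outside stood Tk1 (-0.999), Chn2 (-0.997), Enpp3 (-0.995) and Them6 (-0.994). At the level filter, Tmem17, Tbc1d16 and Podnl1 were just inside (higher values 8.499, 8.499 and 8.501) and Rnaseh1, Ddx59 and Ppp1r3f just outside (8.496 each), against a limit of 8.498. Several genes past 2-fold passed this filter through a single array. The siMUNC value was below the limit for Cxcl13, Kcnj2 (7.24), Hirip3 (7.43), Mrpl48 (7.51), Apobec2, Bdkrb1, Cep41, Rpl22, D030056L22Rik, Aggf1, Serping1, Islr and Oscp1. For Tagln (8.28) and Il33 (8.10) the control value was below it. The folds of these genes rest in part on dim readings. The next highest genes below 2-fold were Ccbe1 (0.98), Ctxn1 (0.97), Clba1 (0.93), Fbxw9 (0.92), Anxa8 (0.89), Srp14 (0.88), Fst (0.86) and Tmem9b (0.85).

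The differentiating pair shares no array with the proliferating pair. Its values entered the choice of cluster and the level limit, through means over the 4 arrays, but its difference between siMUNC and control was not used to pick these genes. Of the 30 genes past 2-fold, 29 differed in the same direction there: 7 of the 7 higher genes and 22 of the 23 lower ones. Among the 7231 genes expressed in both states, 4533 (62.7%) differed in the same direction. This set holds the 7 higher genes but only 18 of the lower ones. Its share also differed by sign. For differences of 0 to 0.25 in proliferating cells it was 69.8% of higher and 51.3% of lower genes. Some matches were slight, with Rpl22 at -0.015 and Hirip3 at -0.064 in differentiating cells. Of the 30 genes Glipr1 was the exception, at -1.06 in proliferating and 0.18 in differentiating cells, where it was dim in siMUNC cells (7.64) and in control cells (7.46). Of the 23 lower genes, 6 were also past 2-fold lower in differentiating cells (2.29% of the 7635 genes expressed there), and 3 of the 7 higher genes, Slc19a2, Trp53inp1 and Il33, were also past 2-fold higher (1.99%). The number of lower genes with both siMUNC arrays below both control arrays was 15 of 23, and 4 of the 7 higher genes had both siMUNC arrays above both control arrays. Over the genes expressed in both states these shares were 14.04% below and 14.7% above. The order of the proliferating pair was set by the picking of the 30 genes and not for the others. Their counts and these shares are therefore not on equal terms, and no conclusion is drawn from them. The labels do not say whether the cultures of a state or of an siRNA were grown or hybridised together. Across the 7231 genes, which share arrays and are not independent, the differences in the 2 states had a Pearson correlation of 0.347.

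Genes of DNA replication and most genes of mitosis were lower in siMUNC cells, by small amounts that varied from gene to gene. Of 37 measured genes of origin licensing and the replication fork, 37 were below 0, with a median of -0.33 and a range of -0.68 to -0.02. Under 4 other scalings 35 to 37 of the genes were below 0. The share below 0 was 43.1% over all genes and 56% over expressed genes, and 36 of the 37 were expressed. In the same list 4 genes were past 1.5-fold lower (2.39% of all genes) and 0 past 1.5-fold higher (1.99%). Cdc6, which loads the replicative helicase, read 8.14 in siMUNC proliferating cells and 8.82 in control proliferating cells, and 7.49 in siMUNC differentiating cells and 6.76 in control differentiating cells. The order of the arrays was thus turned in differentiating cells. Uhrf1, which recognises hemimethylated DNA behind the fork, read 10.41 in siMUNC proliferating cells and 11.07 in control proliferating cells, and 9.44 in siMUNC differentiating cells and 8.36 in control differentiating cells. Mcm4, a helicase subunit, differed by -0.63 in proliferating and 0.49 in differentiating cells, and Orc1, of the origin recognition complex, by -0.61 and 1.05. All 37 genes of the list were above 0 in differentiating cells, with a median of 0.72, where 52% of all genes were above 0 and 48% below.

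Mitosis and kinetochore genes showed the same arrangement. Of 33 measured genes 32 were below 0 with siMUNC in proliferating cells, with a median of -0.32, and 33 were above 0 in differentiating cells, with a median of 1.14. Mki67, the proliferation marker, read 9.86 in siMUNC proliferating cells and 10.50 in control proliferating cells, and 8.86 in siMUNC differentiating cells and 7.67 in control differentiating cells. The 4 arrays of Mki67 therefore run from control proliferating, the highest, through siMUNC proliferating and siMUNC differentiating to control differentiating, the lowest. The centromere gene Cenph (-0.61), the kinetochore gene Nuf2 (-0.54) and the phosphatase gene Cdc25c (-0.54) were farthest below 0 after Mki67. The mitotic cyclin gene Ccna2 was near 0, at 12.86 in siMUNC proliferating cells and 12.96 in control proliferating cells, and Ube2c was at 0.01.

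Regulators of entry into S phase went both ways. Of 23 G1 cyclins, E2F factors and inhibitors of cyclin-dependent kinases, 15 were below 0 and 8 above, with a median of -0.14. Of the 23, 20 were expressed, and 56% of expressed genes were below 0. The pocket protein gene Rbl1 (-0.71), Mybl2 (-0.54) and Ccne2, which encodes cyclin E2 (-0.40), were below 0. Cdkn1a, the p21 inhibitor of cyclin-dependent kinases, read 13.01 in siMUNC proliferating cells and 12.56 in control proliferating cells, and the D-type cyclin genes Ccnd2 (0.42) and Ccnd1 (0.32) were also above 0. In nucleotide synthesis the 3 members farthest below 0 supply thymidylate. Tk1, thymidine kinase, read 9.77 in siMUNC proliferating cells and 10.77 in control proliferating cells, and 8.44 in siMUNC differentiating cells and 7.59 in control differentiating cells. Tyms, thymidylate synthase, differed by -0.56 and Dut, a dUTPase, by -0.50. The 17 measured genes of that list had a median of -0.03, which changed sign under centring and quantile normalization.

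In bulk RNA, fewer cells in a given state and less RNA per cell of that state cannot be told apart. Sorting genes by their mean differentiation effect over both siRNAs bears on how these differences sit against the myotube programme. Of 132 expressed genes at least 2-fold higher on differentiation, 91 (68.9%) were below 0 with siMUNC in proliferating cells (56% of all expressed genes were), with a median of -0.18. Past 1.5-fold, 18 of the 132 were lower (2.5% of all expressed genes) and 8 higher (0.925%). Of 310 expressed genes at least 2-fold lower on differentiation, 268 (86.5%) were below 0, against the same 56%, with a median of -0.34. Past 1.5-fold, 45 of the 310 were lower, against 2.5%, and 3 higher, against 0.925%. The medians of both kinds were thus below 0 before the change of medium. In differentiating cells the medians of the same genes were -0.59 and 0.86, in opposite directions. The differentiation effect and the knockdown difference use the same arrays, so these shares are given side by side only.

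Promoters were read for what the members of these groups share in sequence, from RefSeq windows of GRCm38.p6 that run from 250 bases before to 50 bases after a gene's start. Of the 7564 expressed genes 6203 had a window. Both strands were searched, and shares are over genes with a window. The E2F core, TTTCCCG or TTTGGCG, was in 16 of 30 windows of the replication list (53.3%), in 582 of 6203 of expressed genes (9.38%) and in 1346 of 27025 over all genes (4.98%). The element TTTGAA, the core of the cell cycle homology region, was in 19 of 27 windows of the mitosis list (70.4%), against 11.7% of expressed genes and 18.1% of all genes, and CCAAT was in 19 of 27, against 39.2% and 37.9%. Of 145 windows of expressed genes past 1.5-fold lower, the E2F core was in 14 (9.66%), TTTGAA in 22 (15.2%) and CCAAT in 73 (50.3%). The motif share of a list follows from its choice of members and does not measure an effect of siMUNC. The windows of Cdc6 and Mki67 are shown for the members farthest below 0 in each list, 250 bases before the start, 5′ to 3′ along the gene, with matches in capitals: the E2F core in Cdc6 (chr11:98907901-98908150, plus strand, match on the opposite strand at -137 to -131 from the start), and TTTGAA and CCAAT in Mki67 (chr7:135716380-135716629, minus strand).
Cdc6: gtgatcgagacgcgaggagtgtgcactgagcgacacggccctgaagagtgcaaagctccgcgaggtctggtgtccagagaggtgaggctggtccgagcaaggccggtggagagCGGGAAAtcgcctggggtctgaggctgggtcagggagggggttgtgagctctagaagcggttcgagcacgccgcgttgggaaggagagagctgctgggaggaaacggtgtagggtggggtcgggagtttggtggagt
Mki67: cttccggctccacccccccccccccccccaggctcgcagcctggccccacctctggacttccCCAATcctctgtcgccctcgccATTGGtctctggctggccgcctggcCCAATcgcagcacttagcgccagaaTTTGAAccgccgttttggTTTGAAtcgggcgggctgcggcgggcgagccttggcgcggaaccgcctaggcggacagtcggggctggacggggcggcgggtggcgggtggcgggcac
These matches describe letters in the windows, and occupancy was not measured.

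Sterol and lipid synthesis genes were lower in siMUNC proliferating cells. Cholesterol synthesis runs from acetyl-CoA through mevalonate, squalene and lanosterol, and its genes are controlled together by the membrane-bound factor SREBP2. All 16 measured genes of the pathway were below 0 (13 to 16 under 4 other scalings), with a median of -0.27 and a range of -0.72 to -0.03. Msmo1, which demethylates lanosterol products, read 10.89 in siMUNC proliferating cells and 11.61 in control proliferating cells, and 11.46 in siMUNC differentiating cells and 11.57 in control differentiating cells. Cyp51, the lanosterol demethylase, read 10.45 in siMUNC proliferating cells and 11.10 in control proliferating cells, and 11.15 in siMUNC differentiating cells and 11.20 in control differentiating cells. For both genes the siMUNC proliferating array was the lowest of the 4 and the other 3 lay close together. Mvk, the mevalonate kinase, was at -0.45, while Hmgcs1, the HMG-CoA synthase, was at -0.10 and Mvd and Hsd17b7 were at -0.03 each. In differentiating cells 8 of the 16 genes were above 0 and 8 below.

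Among 8 measured genes of sterol uptake and SREBP2 control, 5 were below 0, with a median of -0.31. Of all genes 43.1% were below 0, and of expressed genes 56%. Insig2, which retains SREBPs in the endoplasmic reticulum, read 10.00 in siMUNC proliferating cells and 10.83 in control proliferating cells, and 10.19 in siMUNC differentiating cells and 10.78 in control differentiating cells. Srebf2, which encodes SREBP2 itself, differed by -0.41 in proliferating and -0.39 in differentiating cells. These genes were lower with siMUNC in both states. Of 10 fatty acid synthesis genes 9 were below 0 (7 to 9 under the other scalings), with a median of -0.22 in proliferating cells and 0.23 in differentiating cells. The desaturase genes Fads2 (-0.45), Fads1 (-0.30) and Scd1 (-0.30) were farthest, while Fasn, the fatty acid synthase, read 11.94 in siMUNC proliferating cells and 11.94 in control proliferating cells.

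In the promoters of the cholesterol list CCAAT, a box bound by the NF-Y factor that works beside SREBPs, was in 12 of 13 windows (92.3%), against 37.9% of all genes. The box was not particular to lists below 0. It was in 11 of 17 windows of p53 targets (64.7%) and 11 of 18 of SRF and MRTF targets (61.1%), lists mostly above 0. Of the myogenic transcription factors, mostly below 0, 3 of 10 windows held it (30%). The sterol element core CACCCCA was in 1 of 13 (7.69%), against 7.5% of all genes, and that window was of Hmgcs1. The windows of Msmo1, the farthest member, and Hmgcs1 are shown for the contrast between them, with CCAAT and CACCCCA in capitals on either strand: Msmo1 at chr8:64733579-64733828, minus strand, and Hmgcs1 at chr13:119690101-119690350, plus strand.
Msmo1: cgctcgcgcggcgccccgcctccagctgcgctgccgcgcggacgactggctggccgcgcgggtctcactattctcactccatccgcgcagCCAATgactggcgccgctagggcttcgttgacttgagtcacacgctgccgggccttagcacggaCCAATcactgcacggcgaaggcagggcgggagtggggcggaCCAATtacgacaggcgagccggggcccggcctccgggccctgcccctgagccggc
Hmgcs1: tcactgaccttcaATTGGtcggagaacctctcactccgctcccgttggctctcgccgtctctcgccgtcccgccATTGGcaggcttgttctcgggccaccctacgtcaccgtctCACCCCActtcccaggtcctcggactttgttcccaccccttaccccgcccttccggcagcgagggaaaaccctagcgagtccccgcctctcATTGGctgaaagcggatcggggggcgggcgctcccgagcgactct

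Targets of p53, the stress-activated tumour suppressor, were higher. Of 22 measured targets 20 were above 0 (56.8% of all genes were), with a median of 0.34. Past 1.5-fold, 6 were higher (1.99% of all genes) and 0 lower (2.39%). Mdm2, the ligase that degrades p53, read 12.13 in siMUNC proliferating cells and 11.46 in control proliferating cells, and 11.93 in siMUNC differentiating cells and 11.33 in control differentiating cells. Zmat3, an RNA-binding target, read 10.61 in siMUNC proliferating cells and 9.77 in control proliferating cells, and 10.54 in siMUNC differentiating cells and 9.35 in control differentiating cells. Both siMUNC arrays were above both control arrays for Mdm2 and Zmat3. Eda2r, a receptor of the tumour necrosis factor family, was higher before the change of medium (0.84) and not after it (-0.13). The stress-responsive Sesn2 was at 0.80 in proliferating and 0.93 in differentiating cells, and Dcxr at 0.62 and 0.35. Sesn1 stood on the other side, at -0.37 and -0.59. Pro-apoptotic Bbc3 was dim, at 7.71 in siMUNC proliferating cells and 7.69 in control proliferating cells. In differentiating cells 16 of the 22 targets were above 0, with a median of 0.42.

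Cytoskeletal targets of SRF and its MRTF cofactors, which respond to actin dynamics, were above 0 in 20 of 24 cases (18 to 23 under the other scalings), with a median of 0.18. The share above 0 was 56.8% over all genes. Beside Tagln, the gamma smooth muscle actin gene Actg2 read 10.33 in siMUNC proliferating cells and 9.48 in control proliferating cells, and 8.76 in siMUNC differentiating cells and 8.79 in control differentiating cells. The siMUNC proliferating array was the highest of the 4 for Actg2, as it was for Tagln. Lmod1 (1.09) and Cnn1 (0.67) were dim on both proliferating arrays, and in differentiating cells they differed by -1.03 and 0.08. The tropomyosin genes differed little, at -0.01 for Tpm1, -0.01 for Tpm4 and -0.15 for Tpm2. Markers of smooth muscle and myofibroblasts overlap this list, and 8 of 9 were above 0, with a median difference of 0.35 and Tagln and Actg2 among them. In differentiating cells 2 of these 9 markers were above 0 and 7 below, with a median of -0.05. Of the defining members of the marker list Myh11 was dim (6.94 in siMUNC cells and 6.79 in control cells), as was Myocd (7.02 in siMUNC cells and 6.98 in control cells), and Smtn was at -0.36. A CArG box, the SRF element, was in 5 of 18 windows of the SRF list (27.8%), against 1.57% of all genes.

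Matricellular and YAP targets had 10 of 12 members above 0, with a median of 0.16, led by Ccn1 (0.61) and Ccn2 (0.49). The share above 0 was 56.8% over all genes and 44% over expressed genes. Ribosome biogenesis genes had 15 of 18 above 0, with a median of 0.18, led by the U3 small nucleolar protein gene Rrp9 (0.49) and Nop2 (0.40). Of the members of both lists, Ccn1 alone was past 1.5-fold. Among NF-kB and inflammatory genes the spread was wider, with 12 of 18 above 0 and a median of 0.18. Only 8 of the 18 were expressed, and 70.1% of dim genes were above 0, so the count does not stand out from its background. Besides Il33, the cyclooxygenase gene Ptgs2 read 11.33 in siMUNC proliferating cells and 10.58 in control proliferating cells, and 10.35 in siMUNC differentiating cells and 9.07 in control differentiating cells, and Tnfaip3, a feedback inhibitor of NF-kB, differed by 0.73 and 0.63. The cytokine genes Il6 (4.05 in siMUNC cells and 4.23 in control cells) and Tnf (5.73 in siMUNC cells and 5.91 in control cells) were dim. Of 22 interferon response genes 13 were above 0 in proliferating cells, near the share of 56.8% over all genes. Their median was 0.14, and 6 of the 22 were expressed.

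**Figure D3:**
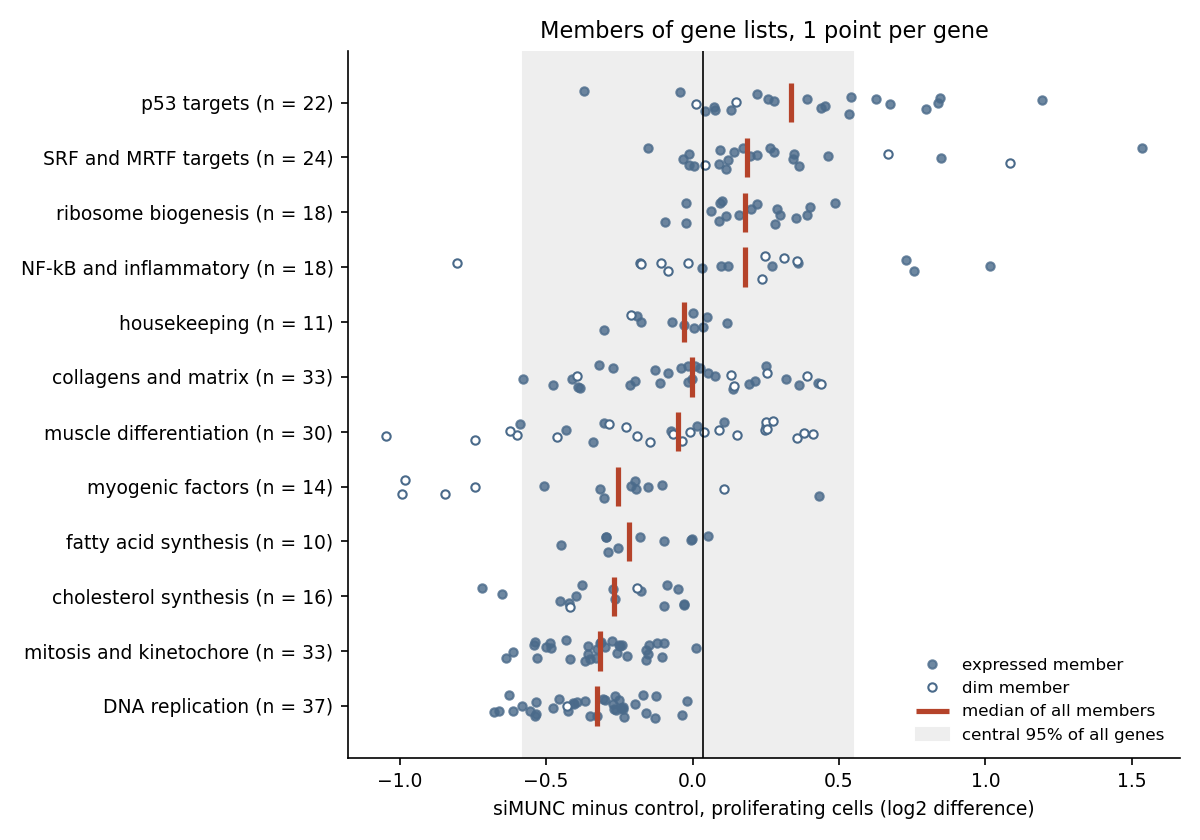
Log2 difference of siMUNC minus control in proliferating cells for each measured member of 12 gene lists, with filled points for expressed and open points for dim members, a red bar at the list median, a grey band for the middle 95% of all genes and a black line at the median of all genes. In the deposited values replication and cholesterol points lie wholly below 0, and of the 12 lists p53 targets have the highest median (0.34).

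Muscle genes differed from list to list. Of 14 measured myogenic transcription factors 12 were below 0, with a median of -0.26. Myog, which encodes myogenin, read 7.45 in siMUNC proliferating cells and 8.43 in control proliferating cells, and 10.56 in siMUNC differentiating cells and 12.21 in control differentiating cells. Mef2c, a MADS-box partner of the myogenic factors, read 7.24 in siMUNC proliferating cells and 8.23 in control proliferating cells, and 8.88 in siMUNC differentiating cells and 10.93 in control differentiating cells. Both factors were dim on the proliferating arrays and bright on the differentiating ones, and lower with siMUNC in each. Myod1 was 1.42-fold lower in proliferating cells and differed by -1.04 in differentiating cells, and Tead4 was at -0.31 and -1.07. Myf5 stood opposite to Myod1, at 0.43 in proliferating and 0.62 in differentiating cells.

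Downstream of these factors the early differentiation genes had a median of -0.05 over 30 measured members, 17 below 0 and 13 above, and the sign of that median changed when the arrays were centred or given a floor. In differentiating cells all 30 were below 0, with a median of -1.54. Only 8 of the 30 were expressed in proliferating cells, so most of the proliferating values are dim readings. Myl1, a myosin light chain, read 6.97 in siMUNC proliferating cells and 8.02 in control proliferating cells, and 12.35 in siMUNC differentiating cells and 13.19 in control differentiating cells. The Z-disc gene Ldb3, an expressed member, differed by -0.59 and -1.51. Genes of the neuromuscular junction had a median of -0.02, whose sign changed under centring, and split within the list. The acetylcholine receptor subunits Chrng (-0.77) and Chrnd (-0.74), the receptor kinase gene Musk (-0.57) and its partner Lrp4 (-0.52) were below 0, while Chrna1, the alpha subunit, read 13.03 in siMUNC cells and 13.09 in control cells. The fusion and adhesion list, which holds Mymk, had 13 of 19 members above 0 and a median of 0.07, where 56.8% of all genes were above 0.

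The E-box CANNTG, the general site of myogenic factors, was in 12 of 18 windows of the genes past 2-fold lower (66.7%), in 60.8% of windows of expressed genes and in 72.2% of all. Its MyoD-preferred form CAGCTG was in 4 of 18 (22.2%), against 14.2% of expressed genes, and in 14 of 24 windows of the early differentiation list (58.3%). The general E-box was in 21 of 24 windows of that list (87.5%). Of the myogenic transcription factors only 4 of 10 windows held it (40%), below the share of expressed genes. The windows of Cxcl13, the lowest gene, and Myog are shown for their E-boxes in capitals: Cxcl13 at chr5:95956689-95956938, plus strand, with its E-box at -91 to -86, and Myog at chr1:134289754-134290003, plus strand, with E-boxes at -138 to -133 and -12 to -7.
Cxcl13: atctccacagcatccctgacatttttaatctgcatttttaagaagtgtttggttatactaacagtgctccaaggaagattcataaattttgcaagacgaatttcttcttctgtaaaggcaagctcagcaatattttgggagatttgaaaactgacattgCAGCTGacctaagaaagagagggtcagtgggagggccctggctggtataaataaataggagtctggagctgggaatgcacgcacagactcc
Myog: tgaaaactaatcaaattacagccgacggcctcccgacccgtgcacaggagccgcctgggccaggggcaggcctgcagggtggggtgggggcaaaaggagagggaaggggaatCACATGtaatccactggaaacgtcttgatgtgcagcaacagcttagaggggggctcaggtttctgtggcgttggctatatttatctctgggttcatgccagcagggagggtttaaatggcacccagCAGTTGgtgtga
The E-box of Cxcl13 is of the CAGCTG form, and those of Myog are not.

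Repressors of myogenesis did not go one way. Id1 (-0.71) and Id3 (-0.70), which titrate the partners of MyoD, and the Notch targets Heyl (-0.60) and Hey1 (-0.53) were below 0, whereas Id4 (0.46) and Msc (0.59) were above. Among chemokines other than Cxcl13, Cxcl12 (-0.56) and Cxcl5 (-0.50) were expressed and below 0, and Ccl2 read 10.89 in siMUNC cells and 10.57 in control cells. Carbonic anhydrase and pH genes had 10 of 13 below 0, with a median of -0.23, and Car3, the muscle form, read 11.40 in siMUNC proliferating cells and 12.03 in control proliferating cells, and 13.15 in siMUNC differentiating cells and 12.50 in control differentiating cells. For Car3 the order of siMUNC and control was reversed between the states, as it was for the cell cycle lists. The list of Cd200, complement and C1q-related genes had 8 of 12 below 0, with a median of -0.21. It holds Cd200, C1qtnf3 and Serping1, and was drawn up with their values known. The thiamine, folate and vitamin transport list had a median of 0.19, and its members other than Slc19a2 lay between 0.00 and 0.30.

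**Figure D4:**
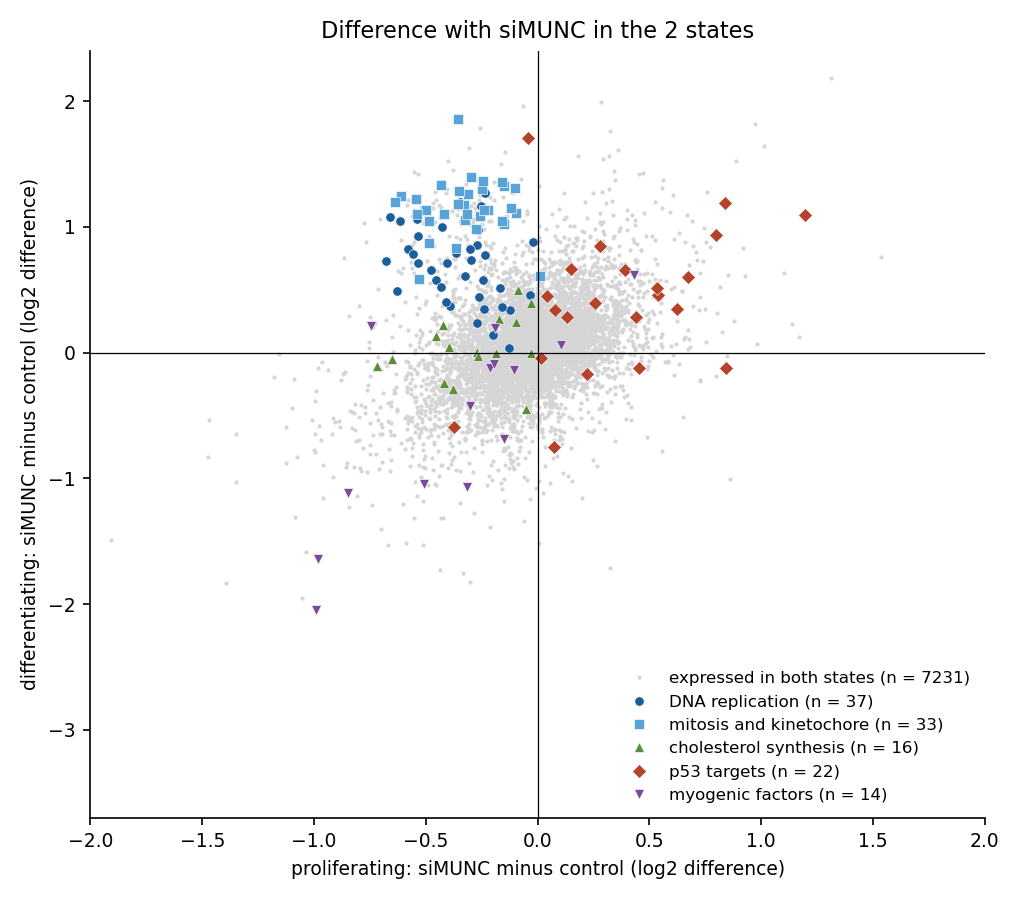
Log2 difference of siMUNC minus control in differentiating cells against that in proliferating cells, with grey points for the 7231 genes expressed in both states and coloured symbols for all measured members of 5 lists. Replication and mitosis genes sit at the upper left (below 0 in proliferating, above 0 in differentiating cells), p53 targets mostly at the upper right, and Myog and Mef2c at the lower left.

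Markers of cell types that the line should lack were read beside these lists. Chondrocyte markers had a median of 0.23 with 11 of 12 above 0, adipocyte markers 0.27 with 7 of 10 above 0 and osteoblast markers 0.22 with 5 of 7 above 0. Dim members dominate these lists, with 1, 4 and 0 members expressed. Dim genes as a whole had a median of 0.13, and 70.1% of them were above 0. Macrophage markers had a median of 0.08, whose sign changed under cyclic loess and among expressed members alone, and endothelial markers had one of 0.11. Fibroblast markers were below 0 in 9 of 11 cases, with a median of -0.17, among them Dcn (-0.48) and Fbln1 (-0.42). Their part in the results was not tested. Of reference genes, Actb read 14.32 in siMUNC cells and 14.31 in control cells, and Ywhaz read 12.88 in siMUNC cells and 12.88 in control cells. Others differed more: Tbp read 10.53 in siMUNC cells and 10.83 in control cells (-0.30), and Hprt differed by -0.19. The 11 measured housekeeping genes had 5 members above 0 and 6 below, with a median of -0.03 and a range of -0.30 to 0.12. The difference of Tbp was thus of the size of some list medians above.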

How the data were processed

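Total RNA from 4 C2C12 cultures was biotin-labelled and hybridised to Affymetrix whole-transcript arrays, per the labels' protocols. For each array the deposited table gives a single value per transcript cluster. Affymetrix Expression Console is the tool named by the submitters' processing notes. Which version, background correction, normalization and build were used is not given in the sources used here. Deposited values, from 2.56 to 14.3, were taken as log2 signal, and every fold rests on that reading. The medians of the arrays were 7.96 (siMUNC proliferating), 8.03 (control proliferating), 8.01 (siMUNC differentiating) and 7.99 (control differentiating). Detection calls were not used here, so the distance from background is known only from the level. Precision is limited by the number of arrays.

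Of 23332 clusters, 14996 had 1 gene symbol in the platform's annotation, 1019 had several genes and 7317 are unnamed here. These gave 14860 genes, 135 with more than 1 cluster, each taken from its brightest cluster by mean value. Entrez identifiers of 14941 single-gene clusters were found in the RefSeq table of GRCm38.p6 and 55 were not.

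The values were used as they stand, and a difference is siMUNC minus control between 2 arrays, with no test. Medians and counts of a list cover all its measured members, dim ones included, beside the same over all genes. The members, the 46 gene lists and the 8 marker lists were chosen with earlier results of these data known. The genes named are the 15 highest and 15 lowest expressed genes without model names, all genes past 2-fold, and of each list the 3 members farthest from 0 each way and those past 1.5-fold. Some further list members, such as Ccne2, Ccnd1, Chrna1, Lrp4, Tead4, Cxcl12, Hey1, Myh11 and Ywhaz, were named after their values were seen. Alternatives were median centring, quantile normalization, cyclic loess (limma 3.58.1, R 4.3.3), an offset of 50 on the linear scale, an array-wise floor at the 25th percentile, other filters, the mean over clusters of a gene, and a threshold of 1.5-fold chosen after seeing the data. The counting was tested on simulated data. Python 3.11.15 with pandas 2.3.3, numpy 2.4.6 and matplotlib 3.10.9 was used.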

Additional observations from a re-analysis of the deposited data

Results flagged for a closer look

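Results are given here where the difference with siMUNC had opposite signs in proliferating and differentiating cells. With 1 array per group the difference between the states was not tested. Lists of the cell cycle were among them. The origin licensing and replication fork list had a median of -0.33 in proliferating and 0.72 in differentiating cells, and the mitosis and kinetochore list -0.32 and 1.14. Among their members, Uhrf1 was at -0.66 and 1.08, Mki67 at -0.64 and 1.19, and Nuf2 at -0.54 and 1.22. The thymidylate synthase gene Tyms was at -0.56 and 0.67, and the pocket protein gene Rbl1 at -0.71 and 0.51.

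The fatty acid synthesis and SREBP1 list had a median of -0.22 in proliferating and 0.23 in differentiating cells. Car3, the muscle carbonic anhydrase, was at -0.62 and 0.65. In the other order, Fst, which encodes the activin and myostatin antagonist follistatin, was at 0.86 and -1.003, reading 8.74 in siMUNC proliferating cells and 7.88 in control proliferating cells, and 9.15 in siMUNC differentiating cells and 10.15 in control differentiating cells. Hspb2, a small heat shock protein gene of muscle, was at 0.65 in proliferating and -0.52 in differentiating cells.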

How the results depend on the processing

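No paired analysis was possible because each group has 1 array, and for the same reason no replicate could be left out. Across 116 values checked for counts, the shared direction and the 13 list medians at least 0.2 from 0, 101 stayed within their limits and 15 moved. The sign of these values is no check, because counts and shares cannot change sign and the medians were taken far from 0. Centring shifted the median of all genes by 0.064. Medians nearer 0 changed sign more easily, such as those of early differentiation genes under 2 settings and collagens under 4. With an offset of 50, 6 genes were past 2-fold higher and 13 lower. With the filter at the 75th percentile, 5 were higher and 6 lower, so the excess of lower genes was small among brighter genes. Without a filter on dim genes 35 were higher and 52 lower, and 74.7% of the 87 differed the same way in differentiating cells. At 1.5-fold, chosen after seeing the data, 70 were higher and 189 lower. Among expressed members alone, the median of the carbonic anhydrase list was -0.40, that of the Cd200 and complement list -0.68, of adipocyte markers 0.079 and of chondrocyte markers 0.092. A floor at the 25th percentile gave 0.049 for osteoblast markers, 0.049 for adipocyte markers and 0.097 for chondrocyte markers, which had 0.13 with the offset. These settings change dim members most by construction. Of the 30 genes past 2-fold, 25 remained after centring, 23 after quantile normalization, 28 after cyclic loess and 19 with the offset, and all 30 kept their sign in each. These genes were picked for differences of at least 2-fold, so a kept sign says little about them. Mymk was within 2-fold under 4 of these settings, at -0.99 to -0.93.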

Other observations

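Imprinted genes were read after Peg3 was seen among the lowest genes, with a list chosen after the values were seen. H19, an imprinted long noncoding RNA, read 12.39 in siMUNC proliferating cells and 13.38 in control proliferating cells, and 13.61 in siMUNC differentiating cells and 13.91 in control differentiating cells. Its neighbour Igf2, a growth factor gene, was dim in proliferating cells (7.66 in siMUNC cells and 7.78 in control cells) and differed by -2.39 in differentiating cells. Dcn was at -0.48 and Ndn, dim on both arrays, at -0.52. Zfp57, a zinc-finger protein that maintains imprints, stood on the other side, at 0.71 in proliferating and 0.80 in differentiating cells. Of 22 measured imprinted genes 15 were above 0 and 7 below, with a median of 0.03 that changed sign under cyclic loess. Only 10 of the 22 were expressed. The share above 0 was 56.8% over all genes and 70.1% over dim genes, so the count is near its background.

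Endoplasmic reticulum chaperone and stress genes were below 0 in 16 of 19 cases (11 to 16 under 4 other scalings), with a median of -0.09 in proliferating cells. All 19 were expressed, and 56% of expressed genes were below 0. Serum and immediate early genes had a median of 0.04, with 15 of 26 above 0, near the share of 56.8% over all genes. Lysosome and autophagy genes were above 0 in 17 of 23 cases, with a median of 0.07. Of expressed genes, as 22 of these 23 were, 44% were above 0.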
